A study of Homo sapiens with 12 samples.

Results

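The 10 genes of the endoplasmic reticulum (ER) stress and amino acid responses examined, HSPA5, HSP90B1, DNAJB9, XBP1, HERPUD1, ATF4, DDIT3, TRIB3, CHAC1 and ASNS, were followed in human proximal tubular cells. They were taken by gene name from the non-control probes of Agilent one-colour arrays, which gave 12 probes for the 10 genes among 34127 probes for 25992 gene names. The labels name 2 immortalised human proximal tubular lines, HK2 (HK-2, immortalised with papillomavirus genes) and RPTEC (RPTEC/TERT1, immortalised with telomerase). All cells were starved of serum and supplements for 24 h and then, in fresh medium at normal glucose, received interleukin-1β (IL-1β) at 10 ng/mL, the SGLT2 inhibitor empagliflozin (Empa) at 500 nM, or nothing (control) for another 24 h. No array held both agents together. Each slide carried 1 control, 1 IL-1β and 1 Empa array of 1 line label and replicate number, which gave 4 slides (HK2 1, HK2 2, RPTEC 1 and RPTEC 2) and 12 arrays. Each treated array was compared with the control array of its own slide, and both treatments share those control arrays.

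As background, the ER folds secreted and membrane proteins with the help of chaperones. When unfolded proteins build up, the sensors IRE1, ATF6 and PERK start the unfolded protein response. IRE1 removes a short intron from the XBP1 mRNA, and the resulting factor, together with ATF6, raises chaperone and ER degradation genes. PERK, like the amino acid sensor GCN2, phosphorylates eIF2α, which lowers general translation while favouring that of ATF4. ATF4 in turn raises genes of amino acid synthesis and import, and DDIT3 (CHOP), TRIB3 and CHAC1. Proximal tubular cells carry a heavy load of membrane transport proteins.

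The promoters are shown for the sequence elements that are usually linked with the 2 branches. The matches found did not sort the 10 genes by branch. All 10 genes matched the RefSeq promoter table (GRCh38.p14), and the 250 bases before each annotated start were searched on both strands. The ER stress response element (ERSE), CCAAT and CCACG with 9 bases between them, was found in 3 of the 10 genes, against 0.0916% of all 27305 genes with such windows, counting a gene once if any of its start sites had a match. ERSE-II, ATTGG and CCACG with 1 base between them, was in 1 of the 10, against 0.0659%. Of all 35116 windows of that length, 0.074% held an ERSE and 0.0513% an ERSE-II. The amino acid response core (CARE), TGATGNAA, was in 3 of the 10 genes, against 3.89% of all genes, and the UPRE core, TGACGTGG, in none, against 0.78%. Of all windows, 3.14% held a CARE and 0.612% a UPRE core. None of the matches overlapped another. A match is a description of letters and no evidence of binding. The 10 genes were chosen as genes of the responses for which these elements are named, so the shares are no test of enrichment. The 6 genes with a match are printed 5′ to 3′ with the matches in capitals, first the 3 with an ERSE, which are a pair of chaperones and a factor that acts on such elements. XBP1 and ASNS have 2 start sites each, and the window of the first is shown.
HSPA5, chr9:125241344-125241593, minus strand: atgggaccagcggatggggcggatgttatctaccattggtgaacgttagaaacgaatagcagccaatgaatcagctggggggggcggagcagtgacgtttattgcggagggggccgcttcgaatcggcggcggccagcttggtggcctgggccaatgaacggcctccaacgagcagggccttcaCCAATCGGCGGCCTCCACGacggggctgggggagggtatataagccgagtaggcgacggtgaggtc
HSP90B1, chr12:103930160-103930409, plus strand: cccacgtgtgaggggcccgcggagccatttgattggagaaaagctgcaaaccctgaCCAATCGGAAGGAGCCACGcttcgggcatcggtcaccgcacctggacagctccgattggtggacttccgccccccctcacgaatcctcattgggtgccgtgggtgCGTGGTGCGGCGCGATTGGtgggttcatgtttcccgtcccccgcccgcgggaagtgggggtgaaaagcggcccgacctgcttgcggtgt
XBP1, chr22:28800570-28800819, minus strand: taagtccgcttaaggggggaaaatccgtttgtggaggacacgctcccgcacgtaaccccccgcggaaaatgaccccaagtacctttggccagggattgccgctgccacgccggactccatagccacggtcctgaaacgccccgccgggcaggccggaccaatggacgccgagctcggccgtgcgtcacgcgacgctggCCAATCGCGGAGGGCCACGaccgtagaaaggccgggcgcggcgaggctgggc
HSP90B1 held an ERSE on each strand. HERPUD1 held both ERSE-II and, on the opposite strand, a CARE.
HERPUD1, chr16:56931892-56932141, plus strand: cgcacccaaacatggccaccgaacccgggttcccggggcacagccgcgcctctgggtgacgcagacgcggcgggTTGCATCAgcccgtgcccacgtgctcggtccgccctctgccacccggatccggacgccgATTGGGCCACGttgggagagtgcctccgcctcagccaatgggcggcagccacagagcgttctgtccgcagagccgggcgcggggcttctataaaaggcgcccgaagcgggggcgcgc
CHAC1 and ASNS held a CARE alone, in CHAC1 on the opposite strand.
CHAC1, chr15:40953221-40953470, plus strand: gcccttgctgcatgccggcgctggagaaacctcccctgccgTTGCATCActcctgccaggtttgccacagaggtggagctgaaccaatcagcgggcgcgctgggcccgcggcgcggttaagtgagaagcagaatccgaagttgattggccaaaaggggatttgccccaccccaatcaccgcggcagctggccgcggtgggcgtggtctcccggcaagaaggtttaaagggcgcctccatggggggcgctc
ASNS, chr7:97872409-97872658, minus strand: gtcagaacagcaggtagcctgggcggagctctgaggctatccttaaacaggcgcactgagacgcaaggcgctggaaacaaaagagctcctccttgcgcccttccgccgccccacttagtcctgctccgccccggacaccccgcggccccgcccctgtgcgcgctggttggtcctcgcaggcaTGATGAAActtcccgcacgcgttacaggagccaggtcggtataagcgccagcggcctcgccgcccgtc
No match of these letters was found in the windows of DNAJB9, ATF4, DDIT3 and TRIB3.

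Levels are given as log2 of the processed signal over the 75th percentile of the array, so that 0 is that percentile and 1 unit is a doubling. Between 53.5% and 63.1% of probes lay well above background on the 12 arrays, and all 10 genes did so on every array by at least 1 probe. The number of arrays and not a read count limits the precision. The line labels need care. Over 15324 probes the control array HK2 1 correlated with RPTEC 2 at r = 0.984 and HK2 2 with RPTEC 1 at 0.973, while the pairs that share a line label reached only 0.88 (HK2) and 0.875 (RPTEC). The source field also names HK-2 for all arrays. Slides are therefore named by their labels, and no value is assigned to a cell line. Of 10 proximal tubule markers, 5 lay above background on all arrays, and of 4 epithelial markers 3 did. With IL-1β, 2 of 6 tested proximal tubule markers and 1 of 3 tested epithelial markers fell in limma, where 7.91% of all genes did. They were the endocytic receptor LRP2 (-2.44 ± 0.16, adjusted p = 0.000115 in limma), the phosphate transporter SLC34A1 (-1.26 ± 0.20, 0.00579) and the adhesion protein EPCAM (-0.98 ± 0.21, 0.0188). SLC34A1 was dim, with control levels from -4.38 to -4.0, and lay above background on only 4 of the 12 arrays. The part of these markers in the results for the 10 genes was not tested. Above background on all arrays were 0 of 5 fibroblast, 1 of 3 endothelial and 2 of 3 leukocyte markers. Of these 11 genes, 7 could be tested and none changed with either agent in limma, near the shares of all genes called (12.4% with IL-1β, 0.00636% with Empa). At an unadjusted p under 0.05 there were 0 of the 7 for IL-1β and 1 for Empa. Among all 15717 genes tested, 4435 (IL-1β) and 1887 (Empa) were. Cultures give 1 RNA pool, so that fewer cells with a transcript and less of it per cell cannot be told apart.

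With IL-1β, XBP1 rose, and both ER chaperones HSPA5 and HSP90B1 read higher on all 4 slides without passing the threshold after adjustment. Of the 8 members that could be tested on all 12 arrays, 1 rose and 0 fell. Among all 15717 genes tested, 4.52% rose, 7.91% fell and 12.4% changed in either direction, so that 1 of 8 is near the share of all genes. At an unadjusted p under 0.05 there were 3 of the 8 members and 4435 of all genes. Of all called genes 36.4% were higher, and 48.4% were after background correction and quantile normalisation. DNAJB9, XBP1, HSPA5 and HSP90B1 were the 4 members whose IL-1β array was higher than its control on all 4 slides, which 15.0% of all genes were. None of the 8 was lower on all 4, which 24.9% of all genes were.

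XBP1 encodes the transcription factor activated by IRE1. Its probe (hg19, chr22:29190733-29190792) reads the amount of the mRNA and not its splicing. Control arrays read 2.06 on slide HK2 1, 2.54 on RPTEC 2, 3.75 on HK2 2 and 3.60 on RPTEC 1. The IL-1β arrays read 3.89, 4.33, 4.18 and 3.94 in the same order. All 4 IL-1β arrays lay above all 4 control arrays, and the controls differed among themselves by more than the IL-1β arrays did. The within-slide differences were 1.83 and 1.79 on HK2 1 and RPTEC 2, and 0.44 and 0.34 on HK2 2 and RPTEC 1. The fitted log2 difference was 1.10 ± 0.28 (SE, n = 4 slides), or 2.14-fold (95% interval 1.37 to 3.34), with an adjusted p of 0.0367 in limma. The difference was 1.09 on the replicate 1 slides alone and 1.11 on the replicate 2 slides alone, which were scanned on different days. Each value averages a slide with a large difference and a slide with a small one. No single slide read close to either value, and XBP1 was not called on the slides of either replicate alone. The call was lost when any 1 of 8 of the 12 arrays was left out, with adjusted p up to 0.129, and in a fit without the Empa arrays (adjusted p = 0.0956, limma).

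HSPA5 encodes BiP (GRP78), the HSP70 chaperone of the ER lumen that also holds the 3 sensors inactive. Its control arrays read -0.14 on slide HK2 1, 0.74 on RPTEC 2, 0.67 on HK2 2 and 0.39 on RPTEC 1, and its IL-1β arrays 0.51, 1.45, 1.41 and 1.09. The 4 within-slide differences lay between 0.66 and 0.73, closer to each other than for any other member with 4 clean spots. Levels of the groups overlapped, since the IL-1β array of HK2 1 was below the controls of RPTEC 2 and HK2 2. The fit gave 0.70 ± 0.24 (SE, n = 4 slides), or 1.63-fold (1.13 to 2.35), with an adjusted p of 0.0842 in limma. That fit takes its spread from the Empa arrays too, and on slide HK2 1 the Empa array was also higher, by 0.68. Whether this bears on the threshold was not tested. In a limma fit of the control and IL-1β arrays alone, chosen after these values were seen, the adjusted p was 0.0359. That fit called 1351 genes in all and did not call XBP1. Of 30 alternatives, 27 left HSPA5 uncalled.

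HSP90B1 encodes GRP94, the HSP90 chaperone of the ER. Its probe with clean spots on every array (hg19, chr12:104337650-104340452, a target that reaches over 2803 genomic bases and so crosses an intron) read 0.36 on HK2 1, 0.73 on RPTEC 2, 1.02 on HK2 2 and 1.03 on RPTEC 1 in controls. With IL-1β it read 1.58, 2.00, 1.07 and 1.36. The differences were 1.23 and 1.27 on HK2 1 and RPTEC 2 but 0.05 and 0.33 on HK2 2 and RPTEC 1. The fit gave 0.72 ± 0.24 (SE, n = 4 slides), or 1.65-fold, with an adjusted p of 0.0875 in limma. The other HSP90B1 probe (hg19, chr12:104341536-104341595) had outlier spots on 3 arrays. With those spots kept, its differences lay between 0.44 and 1.05 and the fit gave 0.77 ± 0.19 with an adjusted p of 0.0293 in limma, where 12.8% of genes were called. With those spots left out, 2 slides had a value, and the fit gave 0.94 ± 0.28 with an adjusted p of 0.0867.

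DNAJB9 encodes ERdj4, a co-chaperone of BiP. Control arrays read 1.69 on HK2 1, 2.31 on RPTEC 2, 0.92 on HK2 2 and 0.46 on RPTEC 1, and IL-1β arrays 2.21, 2.48, 1.18 and 0.76. Each IL-1β array was higher than its own control, by 0.16 to 0.52, while the slides lay further apart than the treatments. The fit gave 0.31 ± 0.17 (SE, n = 4 slides) with an adjusted p of 0.258 in limma.

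HERPUD1 encodes a membrane protein of the ER degradation machinery. Its 1 probe had outlier spots on all 3 arrays of slide HK2 1 and on the Empa array of HK2 2, and it was left out of the fit over complete probes. Control arrays read 5.61 on HK2 1 (outlier spot), 6.24 on RPTEC 2, 3.57 on HK2 2 and 3.36 on RPTEC 1. The IL-1β arrays read 4.67 (outlier spot), 5.06, 3.87 and 3.40. The level was lower with IL-1β on HK2 1 by 0.95 and on RPTEC 2 by 1.18 but higher on the other slides by 0.30 and 0.04. With outlier spots as missing values, 3 slides gave -0.28 ± 0.31 (SE) with an adjusted p of 0.613 in limma, in a fit where 12.5% of genes were called. Its direction on RPTEC 2 was thus opposite to that of XBP1, HSPA5 and HSP90B1 on the same slide.

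**Figure D1:**
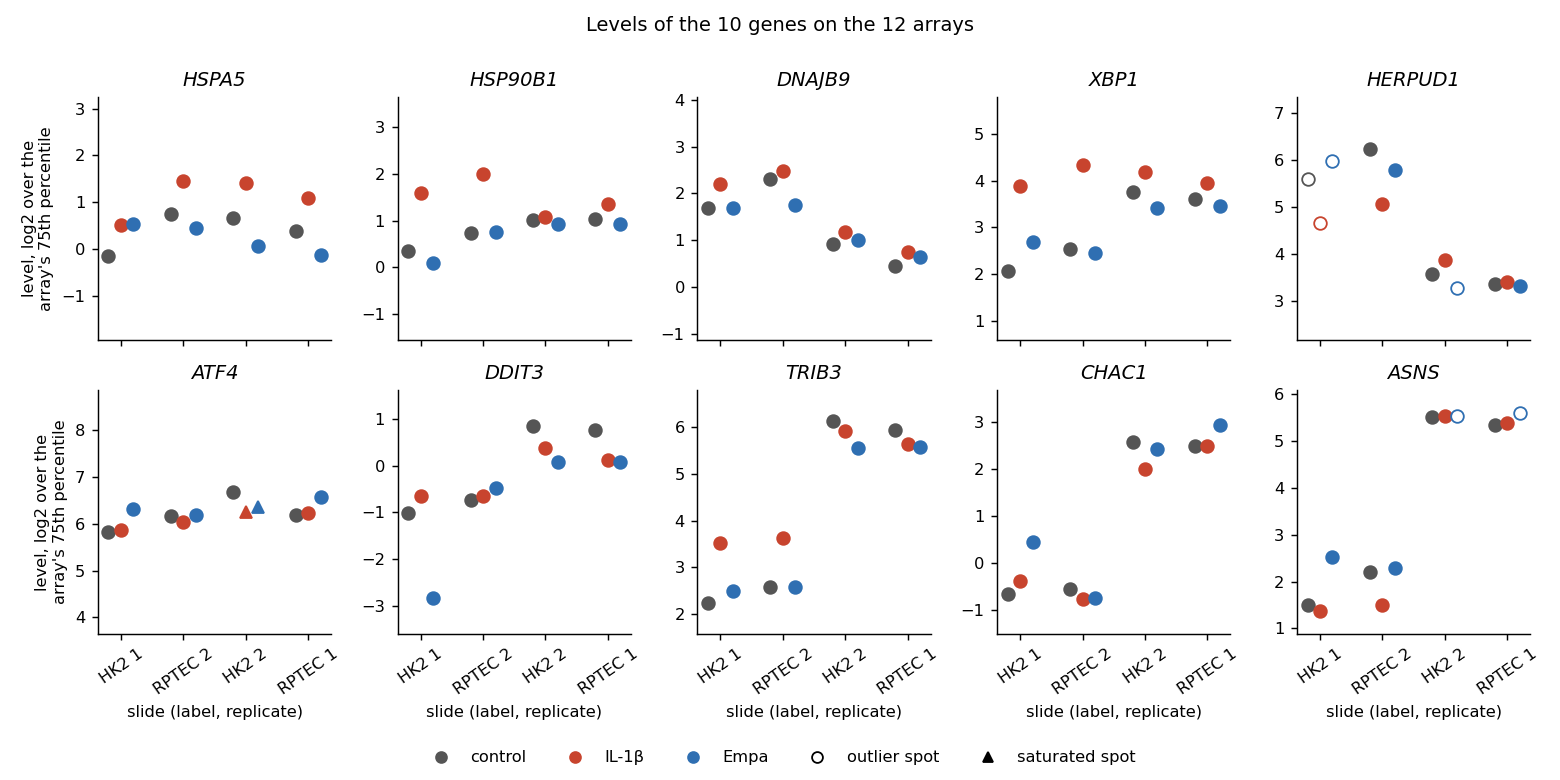
Levels of the 10 genes on each of the 12 arrays (y axis, log2 over the 75th percentile of the array; the axis ranges differ between panels), by slide on the x axis. Points are single arrays, coloured by treatment, open where the spot was an outlier and triangles where it was saturated. XBP1 is higher with IL-1β on all 4 slides, from 3.89 to 4.33, and ASNS, TRIB3, CHAC1 and DDIT3 are higher on HK2 2 and RPTEC 1 than on the other slides under all 3 treatments.

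None of the 5 members of the ATF4 branch passed the threshold with IL-1β in limma, and none of the 4 tested on all arrays did so at an unadjusted p under 0.05. Over all 15717 genes tested, 12.4% passed and 4435 had such an unadjusted p. ATF4 is the transcription factor of the branch. Control arrays read 5.83 on HK2 1, 6.17 on RPTEC 2, 6.68 on HK2 2 and 6.20 on RPTEC 1, and IL-1β arrays 5.87, 6.05, 6.25 and 6.24. The spots of the IL-1β and Empa arrays of slide HK2 2 were saturated, so that those readings are lower bounds. The fit gave -0.12 ± 0.17 (95% interval -0.49 to 0.26, n = 4 slides) with an adjusted p of 0.694 in limma. ATF4 is controlled largely by translation, which arrays do not measure.

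DDIT3 encodes CHOP, a transcription factor linked to cell death after prolonged ER stress. Control arrays read -1.01 on HK2 1, -0.74 on RPTEC 2, 0.85 on HK2 2 and 0.76 on RPTEC 1, and IL-1β arrays -0.65, -0.66, 0.38 and 0.12. IL-1β arrays were higher on the first pair of slides, by 0.37 and 0.09, and lower on the others, by 0.48 and 0.64. The fit gave -0.16 ± 0.36 (-0.98 to 0.65) with an adjusted p of 0.806 in limma.

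TRIB3 encodes a pseudokinase that binds ATF4 and CHOP and is itself one of their targets. Control arrays read 2.24 on HK2 1, 2.58 on RPTEC 2, 6.13 on HK2 2 and 5.94 on RPTEC 1. IL-1β arrays read 3.53, 3.63, 5.92 and 5.64. The level was thus higher by 1.29 and 1.05 on the slides with a low control level and lower by 0.21 and 0.30 on the slides with a high one. Over the 4 slides the fit gave 0.46 ± 0.27 (-0.15 to 1.07) with an adjusted p of 0.305 in limma. A test between those pairs of slides was not made, since they were recognised from the data.

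CHAC1 encodes an enzyme that degrades glutathione. Its brighter probe (hg19, chr15:41248631-41248690) read -0.66 on HK2 1, -0.56 on RPTEC 2, 2.58 on HK2 2 and 2.50 on RPTEC 1 in controls and -0.40, -0.78, 2.00 and 2.49 with IL-1β. The fit gave -0.14 ± 0.22 (-0.64 to 0.37) with an adjusted p of 0.734 in limma. The dimmer probe (hg19, chr15:41247814-41247873) was well above background on 7 arrays, namely all 6 of HK2 2 and RPTEC 1 and the IL-1β array of HK2 1. It gave -0.17 ± 0.32.

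ASNS encodes asparagine synthetase. Its spots were outliers on the Empa arrays of HK2 2 and RPTEC 1, and it too was left out of the fit over complete probes. Control arrays read 1.51 on HK2 1, 2.21 on RPTEC 2, 5.52 on HK2 2 and 5.34 on RPTEC 1, and IL-1β arrays 1.37, 1.51, 5.55 and 5.38. IL-1β arrays differed from their controls by between -0.70 and 0.05. The fit with outlier spots as missing values gave -0.19 ± 0.20 (SE, n = 4 slides) with an adjusted p of 0.588 in limma.

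**Figure D2:**
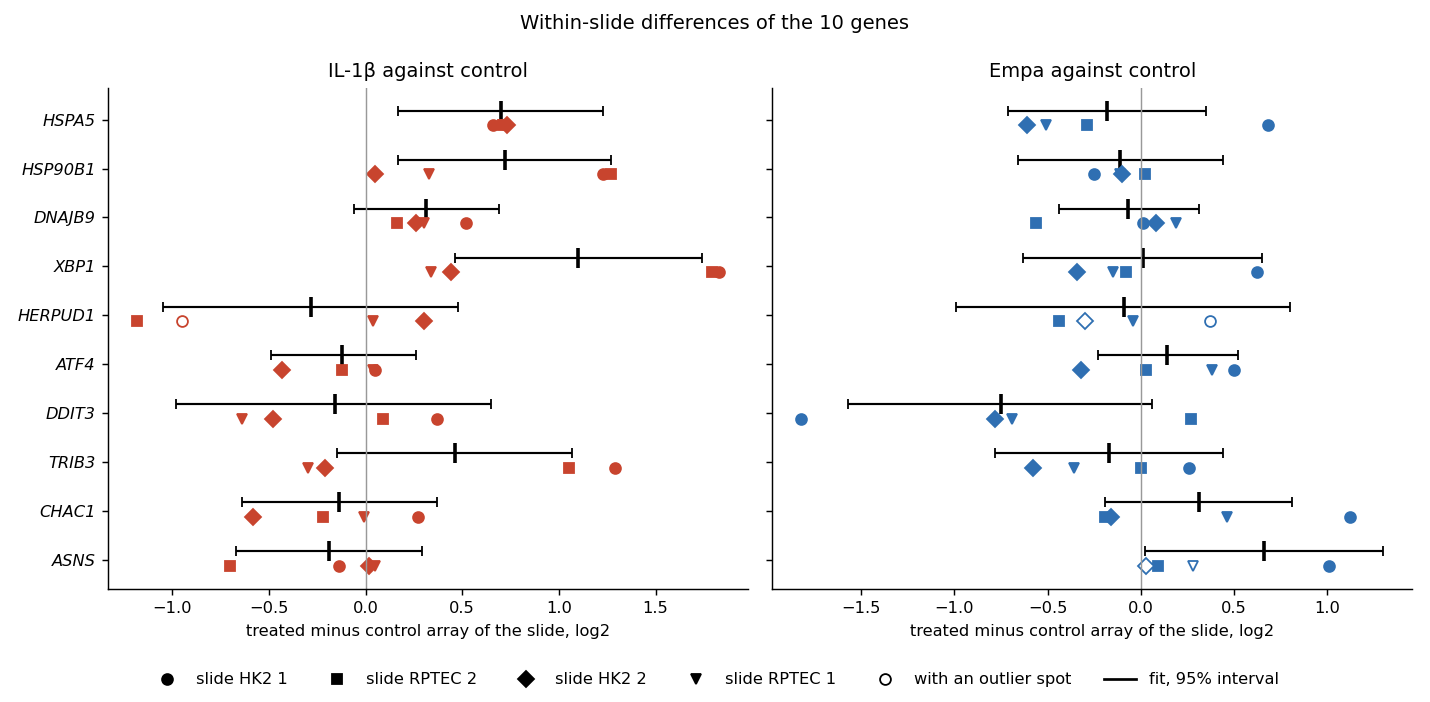
Treated minus control array of the same slide (x axis, log2) for each gene, IL-1β on the left and Empa on the right. Coloured marks are the 4 slides, open where the treated or control spot was an outlier, and black bars are the fitted difference with its 95% interval (for HERPUD1 and ASNS from the fit with outlier spots as missing values). With IL-1β the interval of XBP1 runs from 0.46 to 1.74, and HSPA5 has the 4 slides between 0.66 and 0.73.

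Empa moved none of the members past the threshold. Of the 8 tested 0 were called, and in all 15717 genes 1 was, or 0.00636% (DHRS2, named after its value was seen, log2 difference 2.73 ± 0.24, adjusted p = 0.0176 in limma). At an unadjusted p under 0.05 there were 0 of the 8 members and 1887 of all genes. None of the 8 was higher on all 4 slides or lower on all 4, which held for 12.5% and 13.9% of all genes.

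The Empa array of slide HK2 1 stood out for several members. HSPA5 read 0.53 there against -0.14 in its control, while on the 3 other slides the Empa array was lower, by 0.29 to 0.61. XBP1 read 2.68 there against 2.06, and on the others it was lower by 0.08 to 0.34. CHAC1 read 0.45 against -0.66 there by its brighter probe. Its dimmer probe, not above background on either array, went the other way, at -5.96 against -4.83. DDIT3 read -2.83 there against -1.01, and on RPTEC 2, HK2 2 and RPTEC 1 its Empa arrays read -0.48, 0.07 and 0.07. The DDIT3 fit gave -0.75 ± 0.36 (-1.57 to 0.06, n = 4 slides), with an adjusted p of 0.431 in limma and a lower Empa array on 3 of 4 slides. TRIB3 read 2.50 and 2.58 with Empa on HK2 1 and RPTEC 2 and 5.55 and 5.57 on HK2 2 and RPTEC 1, close to its controls on the same slides by comparison with the gap between slides. The fitted differences of the 7 other tested members lay between -0.18 (HSPA5) and 0.31 (CHAC1), by the probe that stood for each gene. Second probes read otherwise. That of CHAC1 gave -0.36 ± 0.32. That of HSP90B1 gave 0.10 ± 0.19 with outlier spots kept and 0.19 ± 0.24 with them left out, against -0.11 ± 0.24. On HK2 1 it differed from its control by 0.69, and the first HSP90B1 probe by -0.25.

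ASNS was higher with Empa on all 4 slides when outlier spots were kept, by 1.01 on HK2 1, 0.09 on RPTEC 2, 0.03 on HK2 2 and 0.28 on RPTEC 1. That fit, where 0.00621% of genes were called, gave 0.35 ± 0.22 with an adjusted p of 0.526 in limma. With outlier spots as missing values, HK2 1 and RPTEC 2 alone had an Empa value, and the fit, where 0.00625% of genes were called, gave 0.66 ± 0.27 with an adjusted p of 0.406. HERPUD1 read 5.99 (outlier spot), 5.80, 3.28 (outlier spot) and 3.32 with Empa on HK2 1, RPTEC 2, HK2 2 and RPTEC 1. Its 2 clean slides, RPTEC 2 and RPTEC 1, differed from their controls by -0.44 and -0.04. The fit with outlier spots as missing values, which also draws on the other arrays, gave -0.09 ± 0.37.

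None of the 8 tested members passed the test of a difference in response between the labelled lines. The difference of the IL-1β effect, RPTEC minus HK2, was between -0.22 (DDIT3) and 0.16 (HSP90B1) on the log2 scale, with standard errors from 0.39 (DNAJB9 and ATF4) to 0.65 (XBP1). For Empa it was between -0.43 (HSPA5) and 1.09 ± 0.64 (DDIT3, 95% interval -0.41 to 2.59). In each case 0% of all genes were called by limma, with 272 (IL-1β) and 154 (Empa) at an unadjusted p under 0.05. Since each label holds 1 slide of either expression type, these tests compare labels and not cell types, and intervals of this width leave sizeable differences undetected.

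Without treatment, some members were nearly level over the 4 slides and others were far apart. ASNS spanned 4.01 log2 units over the control arrays (16.1-fold), and 3.7% of all genes spanned more. TRIB3 spanned 3.89 (14.9-fold), with 4.03% of genes above it, and CHAC1 3.25 (9.5-fold), with 6.27%. HERPUD1 spanned 2.88 (7.38-fold), with 8.19%. The median gene spanned 1.06. For ASNS, TRIB3, CHAC1, DDIT3, XBP1 and ATF4 the order was HK2 1, RPTEC 2, RPTEC 1 and HK2 2 from low to high, while HERPUD1 and DNAJB9 ran the other way, from RPTEC 1 over HK2 2 and HK2 1 to RPTEC 2. The lower 2 and the higher 2 control arrays were 3.13 apart for ASNS, 3.35 for TRIB3, 3.06 for CHAC1 and 2.04 for HERPUD1. Within a slide, the 3 treatments of these 4 genes differed by 1.32 at most. HSP90B1 (0.68), ATF4 (0.85) and HSPA5 (0.88) spanned less than the median gene. These are descriptions of 4 arrays with no test.

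Other genes of these responses were examined in 6 lists. The lists held 94 genes, of which 90 could be tested and 14 passed with IL-1β, 10 higher and 4 lower. Over all genes tested 12.4% passed, 4.52% higher and 7.91% lower, and the counts of each list stand beside these shares as a description with no test of a list. Of 18 ER chaperones and folding enzymes, 6 rose (4.52% of all genes did), 0 fell and 12 did not pass, while all 18 had a log2 difference above 0. Their median was 0.50 against -0.11 over all genes, and 12 of the 18 were higher on all 4 slides, which 15.0% of all genes were. Under quantile normalisation after background correction, where the median of all genes was -0.02, none of the 12 list genes named here turned its direction. That check covered the named list genes only.

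ERO1L (ERO1A), the oxidase that reloads protein disulfide isomerase, rose 3.81-fold (log2 1.93 ± 0.48, adjusted p = 0.0305 in limma), by 3.24 and 2.93 on HK2 1 and RPTEC 2 and 0.86 and 0.70 on HK2 2 and RPTEC 1. SDF2L1, a partner of ER chaperone complexes, rose 2.36-fold (1.24 ± 0.25), and DNAJC3, a co-chaperone of BiP, 2.03-fold (1.02 ± 0.18). HSPA13, an HSP70-family protein of microsomes, rose 1.90-fold (0.93 ± 0.19) with slide differences from 0.73 to 1.10. ERO1LB and MANF also rose but ranked below the 4 genes that the rule names per list. By slide, the median of the 18 genes was 0.63 and 0.81 on HK2 1 and RPTEC 2, and 0.20 and 0.25 on HK2 2 and RPTEC 1, where the medians of all genes were -0.17, -0.01, -0.18 and -0.06.

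Of 12 tested sensors and regulators, 2 rose and 0 fell, near the 12.4% of all genes that passed. PPP1R15B, a subunit that directs a phosphatase to eIF2α, rose 2.76-fold (1.47 ± 0.21, adjusted p = 0.00318 in limma), by 0.83 to 1.90 on the 4 slides. EIF2AK3, which encodes the sensor PERK, rose 1.91-fold (0.94 ± 0.20), by 0.27 on RPTEC 1 and 1.06 to 1.25 on the others. Of 14 genes of ER degradation and translocation, 1 rose, 1 fell and 12 did not pass, near the 12.4% of all genes. Their median was 0.36 against -0.11 over all genes. SSR1, a subunit of the translocon-associated complex, rose 1.45-fold (0.54 ± 0.15, adjusted p = 0.0431 in limma). EDEM2, which helps to pass misfolded glycoproteins to degradation, fell by 0.63 on the log2 scale (SE 0.16, adjusted p = 0.0311 in limma).

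Of 19 genes of amino acid synthesis and import, 1 rose, 1 fell and 17 did not pass, near the 12.4% of all genes, with a median of -0.09 against -0.11. The largest rise in this list, 2.03 on the log2 scale, did not pass. PHGDH, the first enzyme of serine synthesis, fell by 1.59 on the log2 scale (SE 0.39, adjusted p = 0.0296 in limma), with slide differences of -2.46 and -2.77 on HK2 1 and RPTEC 2 and -0.82 and -0.31 on HK2 2 and RPTEC 1. MTHFD2, a mitochondrial folate enzyme, rose 2.43-fold (1.28 ± 0.24), by 0.50 to 2.13. Both, like ASNS, had low control levels on HK2 1 and RPTEC 2 and high ones on the other slides, at -0.40, -0.28, 3.98 and 3.57 for PHGDH and -1.42, -1.09, 2.52 and 2.82 for MTHFD2 on HK2 1, RPTEC 2, HK2 2 and RPTEC 1. None of 13 aminoacyl-tRNA synthetase genes passed, against 12.4% of all genes. At an unadjusted p under 0.05 there were 0 of the 13 and 4435 of all 15717 genes. Of 14 other targets of ATF4 and CHOP, 0 rose and 2 fell, namely NUPR1, a stress-induced chromatin protein (-1.32 ± 0.25), and KLHL24, a ubiquitin ligase adaptor (-1.14 ± 0.16). That count is near the 12.4% of all genes that passed. The 12 others did not pass, although the largest rise among them reached 3.09 on the log2 scale. Of the 14 targets, 7 had a log2 difference above 0 and 5 an unadjusted p under 0.05 in limma, which 4435 of all 15717 genes had. Their median was 0.02 against -0.11 over all genes. With Empa none of the 90 genes passed in limma, against 0.00636% of all genes, and the list medians lay between -0.27 and 0.09. At an unadjusted p under 0.05 there were 9 of the 90 and 1887 of all 15717 genes.

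**Figure D3:**
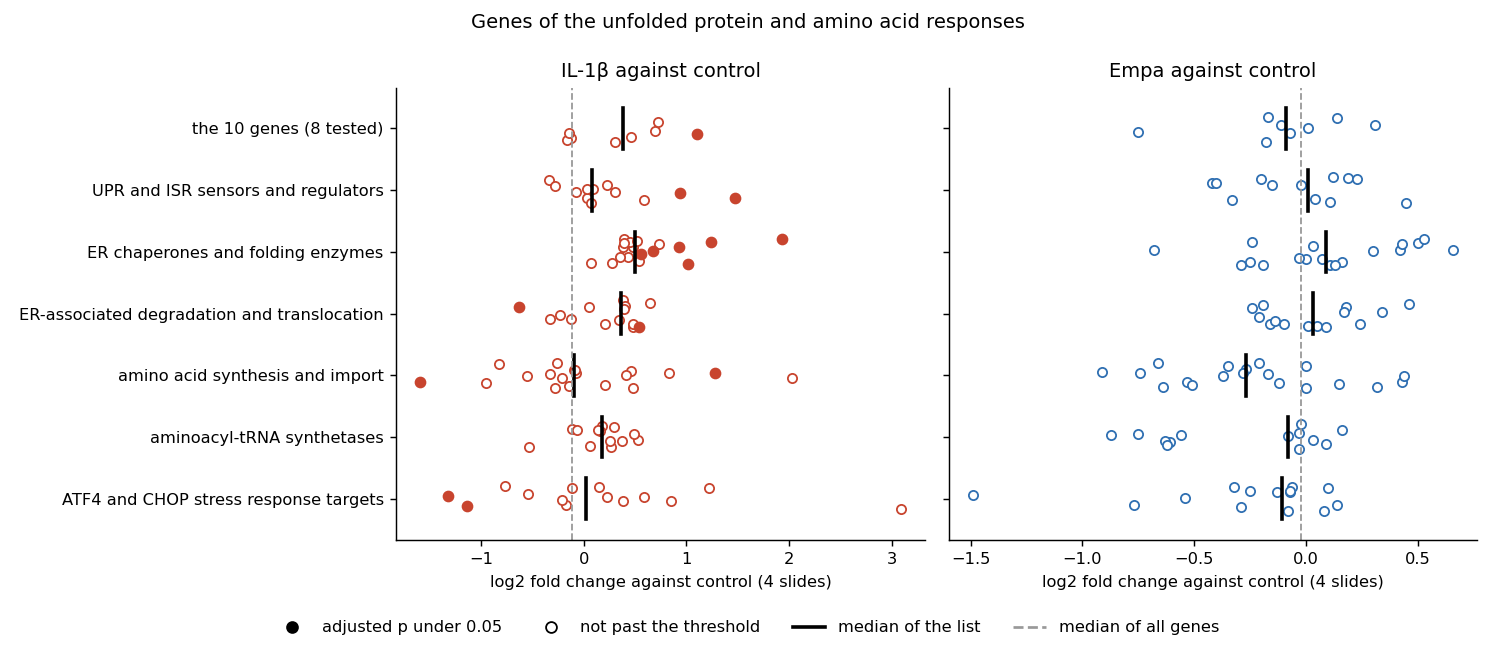
Fitted log2 fold change (x axis) of every tested gene in the 10-gene set and the 6 lists, for IL-1β and Empa. Filled points passed an adjusted p of 0.05, open points did not, black bars are list medians and the dashed line is the median of all genes. The 18 chaperones all lie above 0 with IL-1β, with a median of 0.50, and no point is filled for Empa.

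**Figure D4:**
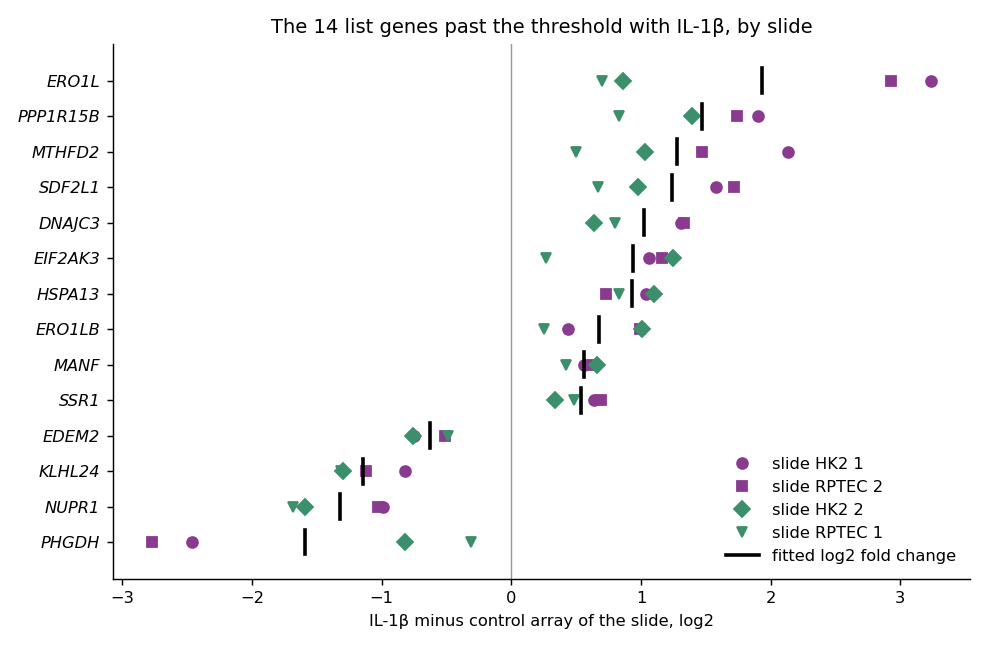
The 14 list genes past the threshold with IL-1β, with the IL-1β minus control difference (x axis, log2) on each slide and the fitted value as a bar. All 4 slides lie on the same side of 0 for each gene, and HK2 1 and RPTEC 2 (purple) exceed the other slides most for ERO1L and PHGDH.

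After the slide means were subtracted, XBP1 ran with HSP90B1 (Pearson r = 0.92 over 12 arrays) and TRIB3 (r = 0.92), and ATF4 with CHAC1 (r = 0.92). For DDIT3 and CHAC1 r was -0.70. Both genes had their largest difference from control on the Empa array of HK2 1, at -1.82 for DDIT3 and 1.12 for CHAC1. The dimmer CHAC1 probe, not above background there, differed by -1.13 on that array. The correlation without slide HK2 1 was not examined. HSPA5 followed XBP1 at r = 0.73 and HSP90B1 at 0.53. The gene nearest to XBP1 among 12599 genes was FGD6 (r = 0.994), and that nearest to HSP90B1 was MSMO1 (0.992). For HSPA5 it was LOC100131262 (0.987), for TRIB3 CPNE7 (0.982), for DDIT3 the transcript ENST00000442125 (0.972), for CHAC1 GPS2 (0.968), for DNAJB9 ENST00000609742 (0.943) and for ATF4 ZDHHC12 (0.938). These correlations describe 12 arrays that share slides and treatments, and each nearest gene is the highest of the 12599 values.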

How the data were processed

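Total RNA of each culture was labelled with Cy3 and hybridised to 1 Agilent Human GE 4x44K v2 array per sample, in biological duplicates per label and treatment per the study's methods. Per the file headers, the authors' scanner software (Feature Extraction 9.5.3.1) gave the processed intensity after background subtraction and spatial detrending, with hg19 probe positions. The deposited table of log2 values, quantile normalised by the authors, served as an alternative only.

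Processed signals were divided by the 75th percentile of the array and set to at least 1 signal unit before log2. Control and outlier spots were dropped. Probes needed a value on all 12 arrays and had to exceed background in both replicates of some group, and the brightest probe stood for a gene (15717 genes). HERPUD1 and ASNS failed the first condition. limma 3.58.1 (R 4.3.3) was fitted with the slide as a block (6 residual degrees of freedom), or with effects per label (4), with Benjamini-Hochberg adjustment and a threshold of 0.05, after a check on simulated data. Arrays of a slide deviated together from their group means (r from 0.627 to 0.895). The replicates of a group differ in expression type, so these correlations show that the arrays of a slide share a type. They cannot show a pairing by slide beyond that. Members and lists were chosen with earlier results of these data known. Named list genes were those past the threshold, at most 4 per list and comparison by size, and nearest genes those with the highest correlation. The reference table has no hg19 annotation, so exon or UTR positions of probes were not analysed here.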

Additional observations from a re-analysis of the deposited data

How the results depend on the processing

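Of 476 values of the 8 tested members under other settings, 431 kept direction and side of the threshold, 17 lost a call (all for XBP1 with IL-1β), 4 gained one and 24 turned sign (17 with Empa), and none of those that turned was called. The XBP1 difference stayed between 0.85 and 1.35 under 30 alternatives, with adjusted p from 0.0236 to 0.626. The 12 named list genes lost their call under between 4 (PPP1R15B and KLHL24) and 20 (SSR1) of their alternatives, and none turned sign. Without the replicate block, so without pairing by slide, 8 genes were called with IL-1β and 0 with Empa, 0 members and 0 list genes. The methods' t-test, stated there for other assays, gave 46 (IL-1β) and 2 (Empa) after Benjamini-Hochberg, 2015 and 625 at an unadjusted p under 0.05, with 0 members and 0 list genes. Either scan day alone gave 0 for IL-1β, Empa, members and list genes. Members called with IL-1β were 0 with no filter on dim probes and 2 with outlier spots kept, the second being the other HSP90B1 probe. With only the control and treated arrays, chosen after seeing the data, 6 list genes and, for Empa, 4 genes were called, and HSPA5 was called in place of XBP1. For Empa 0 genes were called after normexp and quantile normalization, in the authors' table, with no filter on dim probes, with probes above background on all arrays, and with a floor of 5. With normexp and quantile normalization 48.4% of the calls with IL-1β were higher, against 36.4%. The cause of these shifts was not tested.

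Leaving out 1 array or slide gave 445 to 2963 genes with IL-1β, 0 to 1 with Empa, 0 to 2 members and 2 to 19 list genes. The list count was 4 without HK2 control 1, 7 without HK2 IL-1β 1 or HK2 control 2, 6 without RPTEC control 2, 5 without RPTEC IL-1β 2, and 6, 9, 2 and 4 without slides HK2 1, RPTEC 1, RPTEC 2 and HK2 2. XBP1 was not called without HK2 control 1, HK2 IL-1β 1, RPTEC control 1, RPTEC Empa 1, RPTEC control 2, RPTEC IL-1β 2, HK2 control 2 or HK2 Empa 2, with adjusted p from 0.0504 to 0.129, or without slide HK2 1, RPTEC 2 or HK2 2. HSPA5 was called without HK2 Empa 1 (adjusted p = 0.00697) or slide HK2 1 (0.034), and HSP90B1 without HK2 IL-1β 2 (0.0348). With IL-1β, ATF4 ran from -0.20 to 0.01, DDIT3 from -0.52 to 0.00 and CHAC1 from -0.34 to 0.02. With Empa, HSP90B1 ran from -0.22 to 0.02, DNAJB9 from -0.16 to 0.09, XBP1 from -0.21 to 0.18 and TRIB3 from -0.38 to 0.01. Signs also turned with IL-1β for ATF4 (0.02 after normexp and quantile normalization, 0.05 on replicate 1 slides) and CHAC1 (0.13 there). With Empa they turned for HSPA5 (0.08) and DNAJB9 (0.10) on replicate 1 slides, for XBP1 (-0.21), ATF4 (-0.15) and CHAC1 (-0.17) on replicate 2 slides, and for XBP1 in the authors' table (-0.01).

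With 4 slides, intervals of tested members that did not pass were wide. With IL-1β they reached down to -0.98 (DDIT3) and up to 1.27 (HSP90B1), and with Empa down to -1.57 (DDIT3) and up to 0.81 (CHAC1). Changes of such size could have gone undetected, and saturation hides any rise of ATF4 on slide HK2 2. Arrays give mRNA amounts and neither XBP1 splicing nor eIF2α phosphorylation.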
